A study of Homo sapiens with 4 samples.

Results

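Transcript levels of the enzymes that write, maintain and remove DNA methylation were examined in K562 cells, a human leukaemia cell line derived from a chronic myelogenous leukaemia. The 8 genes were found by symbol among the 34692 entries of the signal table: the methyltransferases DNMT1, DNMT3A and DNMT3B, the maintenance cofactors UHRF1 and HELLS, and the dioxygenases TET1, TET2 and TET3. A further entry, CXXC6, carries an older symbol of TET1 and is described beside it. The tested cells were 2 stable transductants over-expressing the zinc finger gene ZNF16, set against 2 stable control transductants, with 1 Illumina HumanHT-12 array for each. All 4 derive from the same line. The labels do not give the vector or promoter, or whether the transductants are clones or were derived separately, so the p-values below reflect the spread among these 4 samples and no more, and that spread may be technical.

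In vertebrate genomes, methyl groups sit mainly on cytosines of CpG dinucleotides. DNMT3A and DNMT3B place new marks, DNMT1 copies them onto the new strand behind the replication fork, and UHRF1 brings DNMT1 there by binding half-methylated DNA. TET enzymes oxidise methylcytosine, which leads to its loss by dilution or repair, and TET2 and DNMT3A are genes often mutated in myeloid leukaemia.

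Of the 6 genes that passed a filter by signal, chosen after seeing the data, UHRF1 alone had arrays that separated by group. Of all entries passing that filter, 40.5% separated. UHRF1 had 1.88 times as much background-corrected signal in ZNF16 cells as in control cells, a difference that did not pass adjustment over all entries. By detection p it was detected on 1 array. DNMT1, DNMT3B, HELLS, TET1 and TET3 had overlapping groups, and DNMT3A and TET2 were not detected on any array. None of the 8 genes passed limma's test after Benjamini-Hochberg adjustment, as was true of every tested entry (0 of 10868, 0%). At an unadjusted limma p under 0.05 there were 398 entries higher and 436 lower (3.66% and 4.01%), and UHRF1, which lay outside the tested entries, had such a p.

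Mean deposited signals were between 956 and 998 on the 4 arrays. The negative-control beads averaged 369.8 to 393.1, as inferred from the detection p-values, and 9913 to 10762 entries were detected (detection p under 0.05). The ZNF16 entry was detected on none, with detection p-values of 0.404 and 0.343 in ZNF16 cells and 0.519 and 0.693 in control cells. It combines several probes and does not check the labels, since it is not known whether they match the transduced sequence. Of 12 markers of K562 and erythroid cells, 12 were detected on all 4 arrays, among them HBG1 and GATA1. Of 6 monocyte and granulocyte markers none was, of 6 lymphocyte markers 1 was (CD3D), and of 8 fibroblast and epithelial markers 4 were. The monocyte and granulocyte marker LYZ nevertheless had signals of 764 and 729 in ZNF16 cells and of 637 and 593 in control cells. On each array this was above the lowest signal of a detected single-probe entry, 459 to 488. The summed signal of the lymphocyte list was 2633 and 2914 in ZNF16 cells and 3051 and 3203 in control cells, that of the monocyte and granulocyte list 2989 and 2837 against 2779 and 2735, and that of the fibroblast and epithelial list 8217 and 9031 against 8505 and 9864. These sums are of deposited signal and include background on each entry. Within the lymphocyte sum, CD3D had 651 and 813 in ZNF16 cells and 1033 and 1052 in control cells. The part of these marker lists in the results below was not tested. Control replicate 2 stood apart. Over tested entries the log2 difference had an SD of 0.341 between the ZNF16 arrays and 0.521 between the control arrays. Against the ZNF16 arrays the SD was 0.610 and 0.525 for control replicate 2, and 0.413 and 0.377 for control replicate 1. Each detected enzyme is given with its value without control replicate 2 and its value without control replicate 1. Signals of different genes are not compared, because probes differ in their response.

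**Figure D1:**
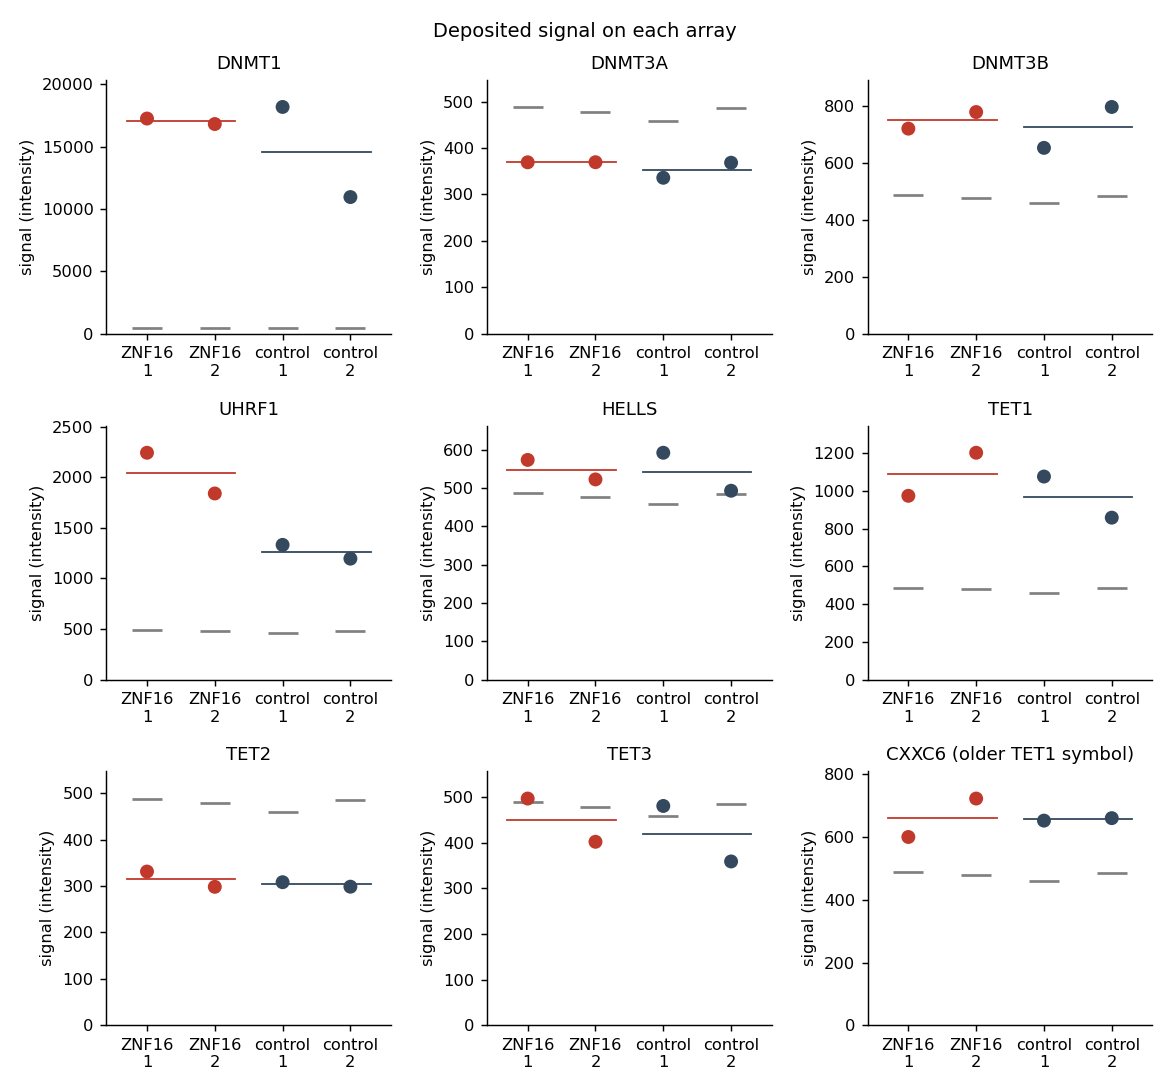
Deposited signal (linear intensity, vertical axis) of each entry on the 2 ZNF16 arrays (red) and the 2 control arrays (dark blue), with group means as lines and, in grey, the lowest signal of a detected single-probe entry on that array. UHRF1 lies at 2243 and 1840.0 in ZNF16 cells, above 1332 and 1196 in control cells, while DNMT3A and TET2 lie below the grey marks on all 4 arrays.

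DNMT1, the maintenance methyltransferase, had signals of 17247 and 16807 in ZNF16 cells and of 18175 and 10957 in control cells. Control replicate 2 was low, and control replicate 1 lay above both ZNF16 arrays in signal and between them after normalization, so the groups overlapped. After background correction and quantile normalization the mean log2 signal was 14.06 ± 0.14 in ZNF16 cells and 13.75 ± 0.42 in control cells (SD, n = 2 each). The log2 fold change was 0.31 ± 0.27 (SE; adjusted p = 0.773 in limma's fit), with a 95% interval from −0.33 to 0.95. Without control replicate 2 it was 0.01, and without control replicate 1 it was 0.61. The controls differed by 0.59 on the log2 scale in DNMT1, more than its difference between the groups, and 1289 tested entries (11.9%) differed between the controls by at least as much in that direction.

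UHRF1, the ubiquitin ligase that reads half-methylated CpG sites, had signals of 2243 and 1840.0 in ZNF16 cells and of 1332 and 1196 in control cells. Both ZNF16 arrays were above both control arrays, and the closest pair of arrays was 0.63 apart on the log2 scale. The mean log2 signal was 10.69 ± 0.30 in ZNF16 cells and 9.78 ± 0.11 in control cells (SD, n = 2 each). The log2 fold change was 0.91 ± 0.20 (SE), with a 95% interval from 0.43 to 1.39, and limma's p was 0.0034 before adjustment and 0.565 after it, in the fit over every entry. In that fit 1103 of 34692 entries (3.18%) were higher at an unadjusted p under 0.05. With 1 array left out the log2 fold change ranged from 0.69 to 1.11, and without control replicate 2 it was 0.85.

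UHRF1 was read from the fit over every entry because its detection p-values, 0.249 and 0.193 in ZNF16 cells and 0.179 and 0.0470 in control cells, kept it out of the tested set, which required a value under 0.05 on 2 arrays. Its signal nevertheless lay far above the lowest signal of a detected single-probe entry, which was 459 to 488 on the 4 arrays. The deposited p-values of UHRF1 equal, on all 4 arrays, the value that a sum of 2 single-probe p-values would have by chance. The sums are 0.705 and 0.621 in ZNF16 cells and 0.599 and 0.306 in control cells. If the signal is the mean of these 2 probes, at least 1 probe was as bright as the entry and so near a p of 0, and the other was then not detected on any array. The entry would then rest on 1 bright probe, and its log2 fold change on that probe alone. When entries were chosen by signal instead, a filter chosen after seeing the data, UHRF1 was among 11406 tested entries. Its SE was larger there, 0.24 against 0.20 in the fit over every entry. Limma's p was 0.0075 before adjustment and 0.435 after it, and 418 entries (3.66%) were higher at an unadjusted p under 0.05. There 125 entries (1.1%) had a log2 fold change as high or higher, and 2404 (21.1%) had both ZNF16 arrays above both control arrays.

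HELLS, a chromatin remodeller needed for methylation of repeats in mice, had signals of 574 and 523 in ZNF16 cells and of 592 and 493 in control cells. The highest and the lowest value were both from control cells. The log2 fold change was 0.13 ± 0.34 (SE; adjusted p = 0.930 in limma's fit), with a 95% interval from −0.69 to 0.95. Without control replicate 2 it was −0.31, and without control replicate 1 it was 0.55. Its p-values also match 2 combined probes, and its detection p was under 0.05 on all 4 arrays.

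Of the de novo enzymes, DNMT3A was not detected. Its signal was 369 and 369 in ZNF16 cells and at 336 and 368 in control cells, with detection p-values from 0.662 to 0.779, and below the inferred negative-control mean on each array. The entry combines 3 probes by its p-values, so that a single detected probe need not show in its detection p. Its fitted log2 difference of 0.09 ± 0.16 (SE; adjusted p = 0.946 in limma's fit) is a difference between background levels and is not read as a change.

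DNMT3B had signals of 722 and 780.2 in ZNF16 cells and of 654 and 798 in control cells, with both ZNF16 arrays between the 2 control arrays. Its detection p-values were 0.0574 and 0.0315 in ZNF16 cells and 0.0576 on both control arrays, which correspond to 5 combined probes. Its signal passed the filter by signal on all 4 arrays although its p-values kept it out of the tested set. The log2 fold change was 0.18 ± 0.22 (SE; adjusted p = 0.925 in limma's fit), with a 95% interval from −0.36 to 0.72. Without control replicate 2 it was 0.47, and without control replicate 1 it was −0.094.

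Of the dioxygenases, TET1 was detected on every array and TET2 on none. TET1 had signals of 974 and 1203 in ZNF16 cells and of 1077 and 859 in control cells. The highest value was ZNF16 replicate 2 and the lowest control replicate 2, and control replicate 1 lay above ZNF16 replicate 1, so the groups overlapped. The log2 fold change was 0.32 ± 0.27 (SE, adjusted p = 0.771 in limma's fit), with a 95% interval from −0.33 to 0.97. Without control replicate 2 it was 0.06, and without control replicate 1 it was 0.58. The CXXC6 entry had 599.6 and 722 in ZNF16 cells and 652 and 659.5 in control cells, with both control arrays between the ZNF16 arrays. Its log2 fold change was 0.09 ± 0.25 (SE; adjusted p = 0.936 in limma's fit), and 0.06 without control replicate 2. The TET1 and CXXC6 entries both had ZNF16 replicate 2 as their highest array, and they differed in the lowest, which was control replicate 2 for TET1 and ZNF16 replicate 1 for CXXC6. The sources used here do not say which transcripts of the gene either entry's probes match.

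TET2 had signals of 331 and 298 in ZNF16 cells and of 308 and 299 in control cells, with detection p-values from 0.768 to 0.908. All 4 values were below the negative-control mean, and its fitted difference of 0.06 ± 0.17 (SE; adjusted p = 0.970 in limma's fit) is again between background levels. TET3 had signals of 496 and 402 in ZNF16 cells and of 480.3 and 359 in control cells. It was detected on 1 array of each group, replicate 1 in both cases, and the groups overlapped. Its log2 fold change was 0.19 ± 0.43 (SE; adjusted p = 0.919 in limma's fit), with the widest 95% interval of the 8 genes, from −0.83 to 1.20. Without control replicate 2 it was −0.36, and without control replicate 1 it was 0.71.

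**Figure D2:**
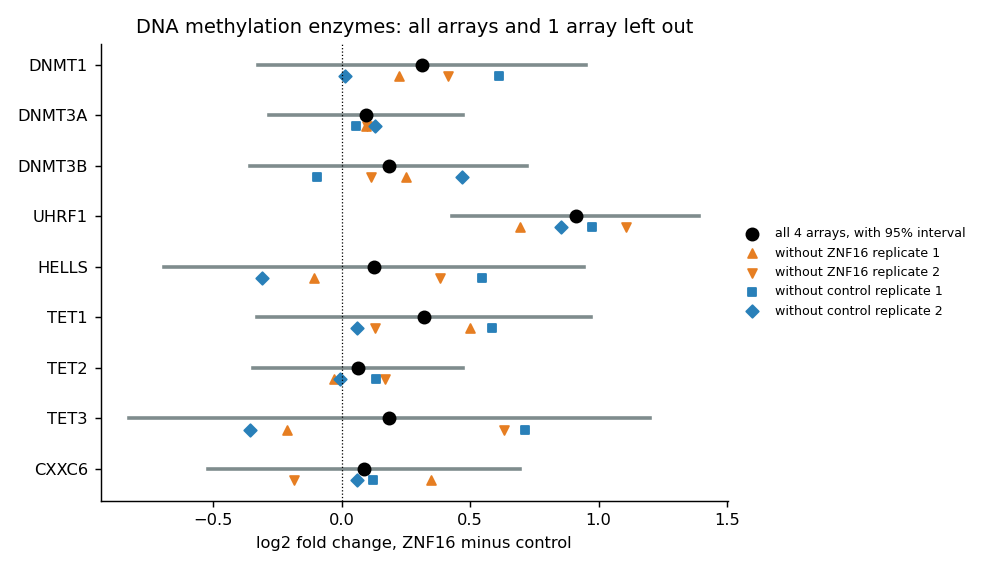
Log2 fold change, ZNF16 minus control (horizontal axis), of each entry with all 4 arrays (black, with 95% interval from limma) and with 1 array left out (coloured). UHRF1 stays between 0.69 and 1.11 when 1 array is left out, and HELLS, TET3, TET2, DNMT3B and CXXC6 have values on both sides of 0.

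The tested genes of the set were DNMT1, HELLS, TET1 and TET3. All 4 had a fitted log2 fold change above 0, as had 51.3% of all tested entries, and their median was 0.25 against 0.01 over all tested entries. Without control replicate 2 their median was −0.15. Without control replicate 1, where TET3 left the tested set, the median was 0.58. None of these 4 had groups that did not overlap, where 4346 of 10868 tested entries (40%) did. In all 4, control replicate 1 had a higher log2 signal than control replicate 2, as had 5655 tested entries (52%).

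Entries whose level ran closest to that of DNMT1, HELLS and TET1, the members detected on all 4 arrays, were looked for over those arrays. For DNMT1 the closest entries were KHSRP, an RNA-binding splicing protein, and TUG1, a long non-coding RNA, with root mean square differences of 0.0056 and 0.012 in centred log2 signal. For HELLS they were FAM153B (0.019) and SUB1 (0.034), a transcription coactivator. For TET1 they were an entry with no gene name (0.019) and CDCA1 (0.020), the kinetochore protein now named NUF2. With 4 arrays such likeness is common, and 77 tested entries lay within 0.05 of DNMT1, 6 of HELLS and 20 of TET1.

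Around these enzymes, 142 genes on 10 lists of partners, readers, cofactor pathways and related genes had an entry, and 98 were tested. Of these, 56 were higher and 42 lower in ZNF16 cells, 57.1% higher against 51.3% over all tested entries, with a median log2 fold change of 0.07. None passed the test (smallest limma adjusted p = 0.455). Groups did not overlap in 25 higher genes (25.5%) and 14 lower genes (14.3%), where all tested entries had 21% and 19%. The tested genes named below were picked for the smallest p of their list, a choice that favours groups that do not overlap.

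**Figure D3:**
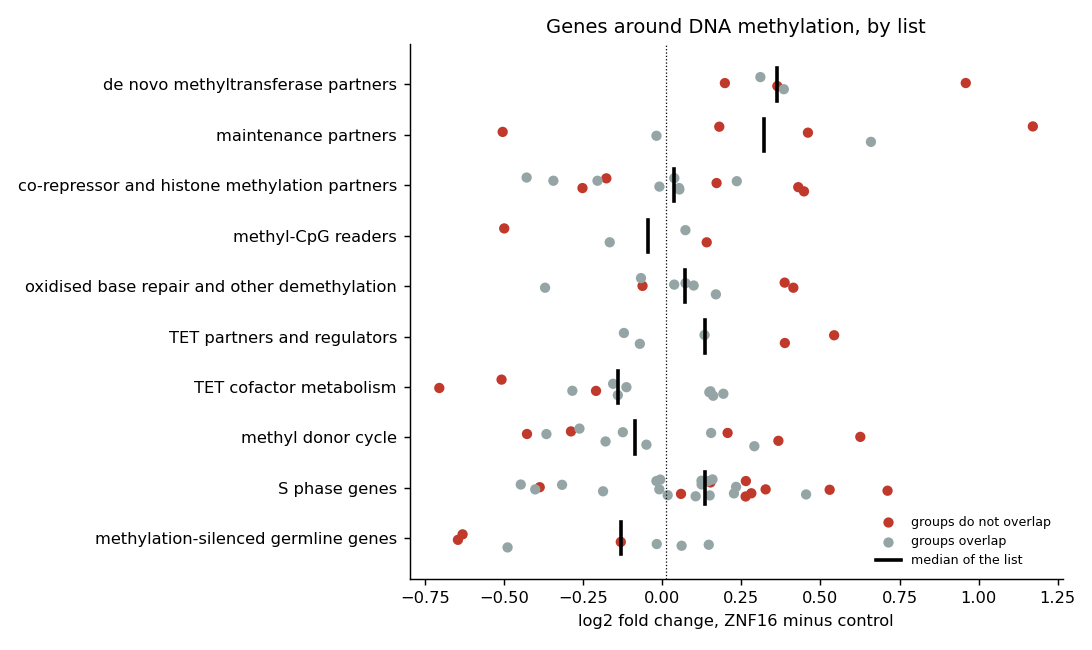
Log2 fold change, ZNF16 minus control (horizontal axis), of each tested gene on 10 lists around DNA methylation, with list medians as black bars and the median of all tested entries as a dotted line. Red points are genes whose groups do not overlap, and no gene passed the test.

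On the list drawn up around the de novo enzymes, the 5 tested genes were CDCA7L, CDCA7, ZBTB24, ZFP57 and MPHOSPH8. All 5 were higher in ZNF16 cells, with a median of 0.36. CDCA7L, a MYC-binding relative of CDCA7, had signals of 543 and 603 in ZNF16 cells and of 465 and 442 in control cells. Both ZNF16 arrays were above both control arrays, and its log2 fold change was 0.96 ± 0.25 (SE, adjusted p = 0.455 in limma's fit). Without control replicate 2 it was 0.77. CDCA7L was detected on 3 arrays. Its control signals lay near the lowest signal of a detected single-probe entry on those arrays, 459 and 485, where background correction weighs heavily on a log2 difference. CDCA7, which works with HELLS on nucleosomes and is mutated with ZBTB24, DNMT3B and HELLS in the same immunodeficiency syndrome, had 0.36 ± 0.23 and ZBTB24 0.38 ± 0.27. The list's median was 0.22 without control replicate 2. The catalytically inactive cofactor DNMT3L was detected on no array.

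Among maintenance partners, 4 of 6 tested genes lay above 0 and 2 below, and the median was 0.32; leaving out control replicate 2 gave 0.21 and leaving out control replicate 1 gave 0.11. CHAF1A, the large subunit of the chromatin assembly factor, had signals of 1025 and 913 in ZNF16 cells and of 842 and 538 in control cells. Its log2 fold change was 1.17 ± 0.49 (SE; adjusted p = 0.649 in limma's fit), and 0.38 without control replicate 2. LIG1, the replicative ligase whose methylated form binds UHRF1, had 823 and 957 in ZNF16 cells and 1059 and 1172 in control cells, with no overlap, and a log2 fold change of −0.50 ± 0.23 (limma adjusted p = 0.657). BAZ2A had 0.46 and CHAF1B 0.66, the last with overlapping groups and 0.09 without control replicate 2. UHRF2, the relative of UHRF1, was detected on no array.

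Of 26 tested S phase genes, 18 were higher and 8 lower. Their median was 0.13, and leaving out control replicate 2 gave 0.09 and leaving out control replicate 1 gave 0.21. E2F2, an E2F family activator of S phase genes, had signals of 3582 and 3404 in ZNF16 cells and of 2809 and 1807 in control cells, and a log2 fold change of 0.71 ± 0.27 (SE; adjusted p = 0.625 in limma's fit). It was 0.41 without control replicate 2. CCNE1, cyclin E1, had 0.53 ± 0.21 (0.643), the primase subunit PRIM1 −0.39 ± 0.22 (0.677), and SLBP, the histone mRNA binding protein, 0.33 ± 0.22 (0.717). The groups of each of these 4 genes, chosen for the smallest p, did not overlap. Among the 26, groups did not overlap in 8 higher genes and 1 lower gene, where all tested entries had 21% and 19%. UHRF1 and DNMT1 transcripts follow the cell cycle, and a part of S phase in their values was not tested.

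Partners and cofactors of the TET enzymes showed both directions. Of 5 tested TET partners, 3 were higher. Their median was 0.13, and leaving out control replicate 2 gave 0.35 and leaving out control replicate 1 gave 0.09. HCFC1, the host cell factor in the complex of OGT and TET proteins, had 5749 and 5332 in ZNF16 cells and 4541 and 3307 in control cells, and a log2 fold change of 0.54 ± 0.23 (SE; adjusted p = 0.650 in limma's fit). OGT itself had −0.12. Of 11 tested genes of TET cofactor metabolism, 4 were higher and 7 lower. Their median was −0.14, and leaving out control replicate 2 gave −0.10 and leaving out control replicate 1 gave −0.20. IDH1, which makes the 2-oxoglutarate that TET enzymes use, had 1114 and 1588 in ZNF16 cells and 1881 and 1938 in control cells, with a log2 fold change of −0.71 ± 0.28 (limma adjusted p = 0.636). SDHC, a subunit of succinate dehydrogenase, had −0.51 ± 0.22, and its groups did not overlap either. Among the 11 genes, groups did not overlap in 0 higher and 3 lower genes, where all tested entries had 21% and 19%.

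Of 9 tested genes of oxidised base repair, 6 were higher. Their median was 0.07; leaving out control replicate 2 gave 0.01 and leaving out control replicate 1 gave 0.13. The glycosylase TDG, which excises oxidised methylcytosine, had signals of 4273 and 3803 in ZNF16 cells and of 3551 and 2572 in control cells. Its log2 fold change was 0.41 ± 0.24 (SE; adjusted p = 0.682 in limma's fit), and PARP1 had 0.39. TDG had 0.24 and PARP1 0.21 without control replicate 2. Of 13 tested co-repressors and histone methylation partners, 7 were higher, among them the deacetylase HDAC1 at 0.45 and the H3K9 methyltransferase SUV39H1 at 0.43. HDAC1 had 0.20 and SUV39H1 0.23 without control replicate 2. Over the 13 genes the median was 0.04; leaving out control replicate 2 gave 0.15 and leaving out control replicate 1 gave −0.06. Of 4 tested methyl-CpG readers, 2 were higher and 2 lower, and MBD4, a reader that is also a glycosylase, had −0.50 and −0.12 without control replicate 2. The readers' median was −0.05; leaving out control replicate 2 gave 0.21 and leaving out control replicate 1 gave −0.44. Of 12 tested genes of the methyl donor cycle, 5 were higher. Their median was −0.09; leaving out control replicate 2 gave 0.18 and leaving out control replicate 1 gave −0.20. AMD1, which turns the methyl donor S-adenosylmethionine towards polyamine synthesis, had signals of 2224 and 1984 in ZNF16 cells and of 1875 and 1229 in control cells, with no overlap. Its log2 fold change was 0.63 ± 0.29 (limma adjusted p = 0.657), and 0.28 without control replicate 2.

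Germline genes that are commonly silenced by promoter methylation were also read. Of 20 such genes, 7 were tested, of which 2 were higher and 5 lower (median −0.13); leaving out control replicate 2 gave −0.04 and leaving out control replicate 1 gave −0.36. SSX1 had signals of 1058 and 1157 in ZNF16 cells and of 1391 and 1661 in control cells, and a log2 fold change of −0.65 ± 0.25 (SE; adjusted p = 0.630 in limma's fit), or −0.41 without control replicate 2. CTAG2 had −0.63 ± 0.28 (0.657). Both were among 3 of the 7 tested genes, all lower, whose groups did not overlap. Over all tested entries 21% did not overlap and were higher, and 19% lower. SSX1 and CTAG2 each had a detection p under 0.05 on 2 arrays, the fewest that a tested entry can have. Both have close paralogues from which probes may not tell them apart. MAGEA3, untested and detected on no array, passed the filter by signal. It had 538 and 517 in ZNF16 cells and 479 and 479 in control cells, higher with no overlap. DAZL, DDX4 and MAEL were detected on no array. DNA methylation itself was not measured on these arrays.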

How the data were processed

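RNA from 4 K562 samples, 2 in each group by the sample titles, was measured on Illumina arrays. Per the submitters' processing notes the deposited intensity values come from GenomeStudio 2010.2. The deposited signal was neither background-subtracted nor scaled, judged from its values, and a second deposited table holds the authors' processed intensity values. A detection p-value was deposited beside each signal. The sources used here do not give how a gene's probes were combined, nor the genome build or annotation.

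Signals were corrected with limma 3.58.1 in R 4.3.3 (normexp, negative-control mean and SD inferred from the p-values of 27095 entries on steps of 1 in 770), with an offset of 16, then quantile normalized and taken to log2 of the deposited intensity. Entries with a detection p under 0.05 on at least 2 arrays were tested (10868) with lmFit and eBayes, two-sided, Benjamini-Hochberg adjusted, threshold 0.05. Untested genes were read from the same fit over 34692 entries. All 8 genes are named, as are up to 4 genes of smallest p on each of the 10 lists around methylation and the closest profiles. Genes of the cell type marker lists were named outside this rule. The genes and lists were chosen with earlier results of these data known. The fit was also run on simulated data with the same spread on all 4 arrays. The real arrays differed in spread, so that run does not bear on the results here. The number of arrays limits the precision, and an exact permutation test of 2 against 2 cannot go below 0.333. The filter by signal was chosen after seeing the data. Replicate numbers were not taken as pairing.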

Additional observations from a re-analysis of the deposited data

How the results depend on the processing

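No member passed the threshold under any of 15 alternatives, and UHRF1, DNMT1 and TET1 stayed above 0 in all of them, UHRF1 between 0.53 (negative-control statistics from all entries) and 1.11, with adjusted p from 0.140 to 1.000. Over all genes, 3 passed with normexp by maximum likelihood, with an offset of 50 and with a trended and robust variance, 7 with median scaling, 114 with the replicate block, and 0 to 2 with 1 array left out. Under the block, UHRF1 had an adjusted p of 0.322. The deviations of same-numbered arrays correlated at 0.193, which with 2 numbers does not establish a pairing. Members with groups not overlapping numbered 2 of 8 with no filter on dim entries (UHRF1 and the undetected DNMT3A), against 36.1% of all entries, 1 of 6 with the filter by signal, against 40.5%, and 1 to 3 with 1 array left out, where 59.6% to 81.1% of all tested entries did not overlap. The median of the tested members was −0.15 without control replicate 2 and reached 0.58 without control replicate 1. Median scaling moved the median of all tested entries to −0.19 and gave −0.11 for DNMT3B, −0.12 for HELLS and −0.24 for CXXC6, all but CXXC6 above that median. With 1 array left out, DNMT3B ranged from −0.094 to 0.47, HELLS from −0.31 to 0.55, TET2 from −0.030 to 0.17, TET3 from −0.36 to 0.71 and CXXC6 from −0.18 to 0.35; the cause was not tested. In the authors' processed values DNMT3A and TET2 were below the floor on all arrays and gave no value. No slide was given, so that a slide block was not run.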

Other observations

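The number of probes behind an entry was read from the deposited detection p-values. Of 7597 entries that did not lie on single-probe steps, 7348 (96.7%) had p-values on all 4 arrays that equal the chance of so small a sum of single-probe p-values. This match gave 2 probes for 4870 entries, 3 for 1864 and 4 for 419, and 334 entries matched more than 1 number. An entry with 1 bright and 1 dark probe therefore has a high detection p, as UHRF1 does, and 895 entries passed the filter by signal but not the filter by detection p.

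PCNA, the replication clamp that binds DNMT1, is one of them, named after its values were seen. It had signals of 1070.3 and 1109.9 in ZNF16 cells and of 1072 and 969.8 in control cells, yet detection p-values from 0.0754 to 0.131. Its log2 fold change was 0.19 ± 0.22 (SE; adjusted p = 0.825 in limma's fit with the filter by signal). Of the untested genes on the 10 lists, 9 passed the filter by signal.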
